A study of Mus musculus with 18 samples.

Results

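The proteasome genes of the infarcted mouse heart were taken from the table of expression by their symbols. A symbol counted as a member when it began with Psma, Psmb, Psmc, Psmd, Psme, Psmf or Psmg followed by a digit and reached 1 FPKM (a count of sequenced fragments divided by transcript length and by the mapped fragments of the mouse) in at least 1 of 18 mice. This rule held for 48 genes, out of 13333 symbols that reached 1 FPKM and 24419 symbols in all. Of the 48, 42 are constitutive members and 5 are immune members (Psmb8, Psmb9, Psmb10, Psme1 and Psme2), which are described apart, and Psmc3ip matches the pattern without encoding a proteasome subunit. A further 2 symbols, Psmb11 and Psme2b, matched the pattern and stayed below 1 FPKM. RNA was sequenced from the heart of C57BL/6 mice, 8 weeks old and male by the study's methods, with 3 mice in each of 6 groups. All mice received sodium pentobarbital (50 mg/kg, intraperitoneal) as the anaesthetic. The 3 mice called control in the labels are the sham group, and acute myocardial infarction (AMI) was made in the other groups by tying off the proximal left anterior descending coronary artery. Tissue was collected 10 min, 1 h, 6 h, 24 h and 72 h later, and it was the infarcted myocardium of the left ventricle as a whole, without sorting of cells.

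The proteasome degrades proteins that carry chains of ubiquitin. Its barrel-shaped 20S core has outer rings of alpha subunits and inner rings of beta subunits, of which Psmb5, Psmb6 and Psmb7 hold the proteolytic sites, and the 19S cap recognises, unfolds and feeds the substrate with a ring of ATPases. Interferons induce Psmb8, Psmb9 and Psmb10, which take the places of Psmb5, Psmb6 and Psmb7 in newly built cores, and Psme1 and Psme2, which form the PA28 activator. Such immunoproteasomes are known for cutting peptides for MHC class I molecules and are abundant in leukocytes, while the constitutive proteasome handles most protein turnover in cardiac myocytes. The transcription factor NRF1, encoded by Nfe2l1, raises the genes of constitutive subunits together when proteasome activity falls short.

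Promoter windows, from 250 bases before to 50 bases after the start of the gene, were found in RefSeq (GRCm38.p6) for 40 of the 48 genes, 34 of them constitutive and 5 immune. Motifs were searched on both strands in the 300 bases. The antioxidant response element core, TGACNNNGC, which NRF1 and NRF2 bind, was present in 6 of 34 constitutive windows (17.6%) and in none of the 5 immune windows, against 17.0% of the windows of all expressed genes and 14.0% of all windows in the table. The CCAAT box was present in 35.3% of constitutive windows and in 42.6% of those of expressed genes. In 4 constitutive windows (11.8%), those of Psmb3, Psmd4, Psmd9 and Psmg4, the search found the interferon-stimulated response element core, GAAA repeated with any 2 bases between, against 3.83% of windows of expressed genes. The interferon-gamma activated site TTCNNNGAA was found in 5.88% of constitutive windows and 8.36% of those of expressed genes, and the NF-kappaB motif in 2.94% and 6.53%. Among the immune genes each of 3 motifs had 1 match. The places of these matches are shown, because they are the matches found among the immune genes, with the motif in capitals. Psmb9 is read from the minus strand and Tap1, the peptide transporter of the MHC class I pathway, from the plus strand of chromosome 17, with 225 bases between their RefSeq starts, and the CCAAT box lies in this stretch.
Psmb9 and Tap1, chr17:34187331-34187360, plus strand: tttCCAATcagcggctgcgcgcggtgcagg
Psmb8, chr17:34198088-34198116, plus strand, interferon-gamma activated site: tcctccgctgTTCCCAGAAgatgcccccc
Psme1, chr14:55578493-55578522, plus strand, interferon-stimulated response element core: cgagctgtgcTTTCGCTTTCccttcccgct
The antioxidant response element core is shown for the constitutive catalytic genes Psmb5 and Psmb6 and for Psme4, the member that fell most.
Psmb5, chr14:54618024-54618052, minus strand: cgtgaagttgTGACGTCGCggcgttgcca
Psmb6, chr11:70525338-70525366, plus strand: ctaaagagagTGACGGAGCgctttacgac
Psme4, chr11:30771758-30771786, plus strand: cgctgcggctGCAGCGTCAccagaagagc
In the lines of Psme1 and Psme4 the match lies on the other strand, so the capitals there are the reverse complement of the motif. A match is a run of letters and was not tested as a binding site.

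Over all symbols the FPKM of a mouse added up to 542418 at the lowest and 600467 at the highest. No read counts were available, and the steps between the lowest FPKM put the depths at 0.813 to 1.32 times that of the first sham mouse, with 1.24 to 1.32 at 72 h. For each comparison, log2(FPKM + 1) of 3 mice was set against that of 3 mice with the moderated test of limma, and p-values were adjusted over every gene tested (Benjamini-Hochberg). A gene is called higher or lower when its adjusted p was under 0.05. Log2 fold changes are differences between group means of log2(FPKM + 1), a scale that makes changes at low FPKM look smaller. All comparisons with sham share the same 3 sham mice, so the time points are not independent of each other. FPKM are relative to all RNA of a mouse, and over all genes the log2 fold change had a median of 0.13 at 24 h and 0.29 at 72 h. With another scaling, by the median of ratios, these medians were 0.02 and 0.10, and with quantile normalization they were -0.04 and -0.10. A call is therefore given as held or lost under 4 scalings, which are FPKM as deposited, FPKM rescaled to the same sum, and these 2.

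The tissue changed in its cell types over the same hours. Markers of cardiac myocytes (9 genes) had a summed level of 59227 to 62776 FPKM in the sham mice and 21900 to 27210 FPKM at 72 h, where 9 of 9 were called lower, after 6 of 9 at 24 h and 3 of 9 at 6 h, against 24.2%, 11.4% and 16.8% of all genes. The call of Actc1 at 72 h (adjusted p up to 0.93), those of Atp2a2 and Myl2 at 24 h and that of Myl2 at 6 h did not hold under all 4 scalings described above. Pan-leukocyte markers (10 genes) summed to 78.1 to 102 FPKM in the sham mice and to 311, 100.04 and 177 FPKM at 6 h. They summed to 384, 412 and 860 FPKM at 24 h and to between 1307 and 1479 FPKM at 72 h. Of these markers 4, 10 and 10 were called higher at 6 h, 24 h and 72 h, against 11.6%, 26.2% and 53.1% of all genes. Macrophage and monocyte markers (8 genes) went from 199 to 227 FPKM in the sham mice to between 3536 and 4629 FPKM at 72 h. All 8 were called higher at 72 h, against 53.1% of all genes. Neutrophil markers (6 genes) were uneven between mice, at 1001, 117 and 377 FPKM at 6 h and 216, 45.2 and 996 FPKM at 24 h. Fibroblast markers (7 genes) rose from between 231 and 260 FPKM to between 3661 and 4792 FPKM at 72 h. Of 10 T and NK cell markers, 7 stayed below 1 FPKM in every mouse, among them Cd3e, Cd3d, Cd3g and Cd8a. The 10 summed to between 0.918 and 1.76 FPKM in the sham mice and to between 5.69 and 9.81 FPKM at 72 h. In whole tissue, fewer cells of a type and less RNA per cell cannot be told apart. The part of these shifts in the changes of the proteasome genes was not tested.

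In the sham heart the proteasome genes spanned a wide range of FPKM, a scale per transcript length on which genes can be set side by side. The 2 highest were Psme4, encoding the activator PA200 (326 ± 30.1 FPKM, SD, n = 3), and Psmb7, the catalytic subunit with trypsin-like activity (320.5 ± 7.82 FPKM), which did not differ beyond their spread. The constitutive beta genes had a median of 148 FPKM over 7 genes, the alpha genes 101 FPKM over 8, the ATPases 91.7 FPKM over 6 and the other 19S subunits 85.2 FPKM over 11. Assembly chaperones were low, with a median of 13.9 FPKM over Psmd5, Psmd9 and Psmd10 of the 19S base and 19 FPKM over Psmg1 to Psmg4 of the 20S core. Psma8, the alpha subunit known from testis, had 0.561 ± 0.331 FPKM and reached 1 FPKM in 1 mouse at 72 h. Among the immune genes the order was Psme1 (152 ± 6.6 FPKM), Psmb10 (91.1 ± 6.96 FPKM), Psme2 (29.9 ± 2.18 FPKM), Psmb8 (18.3 ± 1.88 FPKM) and Psmb9 (9.44 ± 0.634 FPKM), and no neighbours in this order overlapped.

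In the first hour after ligation no proteasome gene was called. At 10 min, 0.248% of all genes were called higher and 0.0978% lower (0.346% in either direction), and at 1 h 0.669% and 0.0526% (0.722%). None of the 42 constitutive genes was called at either time, and 5 of them at 10 min and 11 at 1 h had an unadjusted limma p under 0.05. The FPKM of all 3 AMI mice lay below all sham mice for 13 constitutive genes and above them for 2 at 10 min, against 8.13% and 12.2% of all genes. At 1 h they lay below for 17 and above for none, against 10.9% and 7.40% of all genes. The median log2 fold change of the constitutive genes was -0.07 at 10 min and -0.09 at 1 h, against 0.02 and -0.02 for all genes. Psmb7, for example, measured 318, 329 and 314 FPKM in the sham mice and 281, 287 and 287 FPKM at 1 h (adjusted p = 0.17, log2 fold change -0.17 with an SE of 0.04). The 5 immune genes were not called in either group.

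At 6 h the immune catalytic genes fell together, while 1 constitutive gene rose. Of the 5 immune genes, 3 were called lower, against 16.8% of all genes (28.3% were called in either direction), and all 5 had lower FPKM in each 6 h mouse than in any sham mouse, against 30.1% of all genes. Psmb9, which replaces the caspase-like subunit Psmb6, measured 9.07, 10.2 and 9.07 FPKM in the sham mice and 5.49, 5.85 and 4.51 FPKM at 6 h, a fall to a ratio of 0.560 (adjusted p = 0.00464, log2 fold change -0.74 with an SE of 0.11). Psmb8, which replaces the chymotrypsin-like subunit Psmb5, went from 16.5, 18.4 and 20.2 FPKM to 13.6, 12.5 and 11.4 FPKM (adjusted p = 0.0130, log2 fold change -0.52 with an SE of 0.11). Psmb10 had 88.2, 86.1 and 99.1 FPKM in the sham mice and 58.8, 78.0 and 72.8 FPKM at 6 h (adjusted p = 0.0447, log2 fold change -0.39). Psme1 and Psme2 had log2 fold changes of -0.26 and -0.21 and were not called (adjusted p = 0.059 and 0.098). The calls of Psmb8 and Psmb9 held under all 4 scalings, and that of Psmb10 did not with the median of ratios (adjusted p = 0.0896). Without the second or the third sham mouse only 1 of the 5 was called, which was Psmb9 (Psmb8 then had an adjusted p of up to 0.0587).

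The constitutive gene that rose at 6 h was Psmd11, a subunit of the 19S lid that clamps the cap to the core. It lies on chromosome 11 from 80428615 to 80473248 (mm10, GENCODE release M21). Its FPKM were 36.2, 38.4 and 39.6 in the sham mice, 39.7, 47.0 and 42.6 at 10 min, 41.0, 41.9 and 39.3 at 1 h, and 73.7, 58.3 and 61.3 at 6 h (adjusted p = 0.00326, log2 fold change 0.74 with an SE of 0.10). All 6 h mice thus stood above all mice of the earlier groups. Calls of higher expression at 6 h were made for 1 of 42 constitutive genes, against 11.6% of all genes, and of lower expression for none. The lowest log2 fold change among the constitutive genes at 6 h was that of Psmg1, a chaperone of 20S assembly (-0.51 with an SE of 0.19, adjusted p = 0.085). Psmg1 had 14.8, 22.8 and 26.9 FPKM at 6 h, against 31, 29.3 and 30.3 FPKM in the sham mice. The first 6 h mouse was the lowest of all mice in Psmg1, and among the 6 h mice it had the highest sums of leukocyte and neutrophil markers. Without the third 6 h mouse, 4 constitutive genes were called lower.

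**Figure D1:**
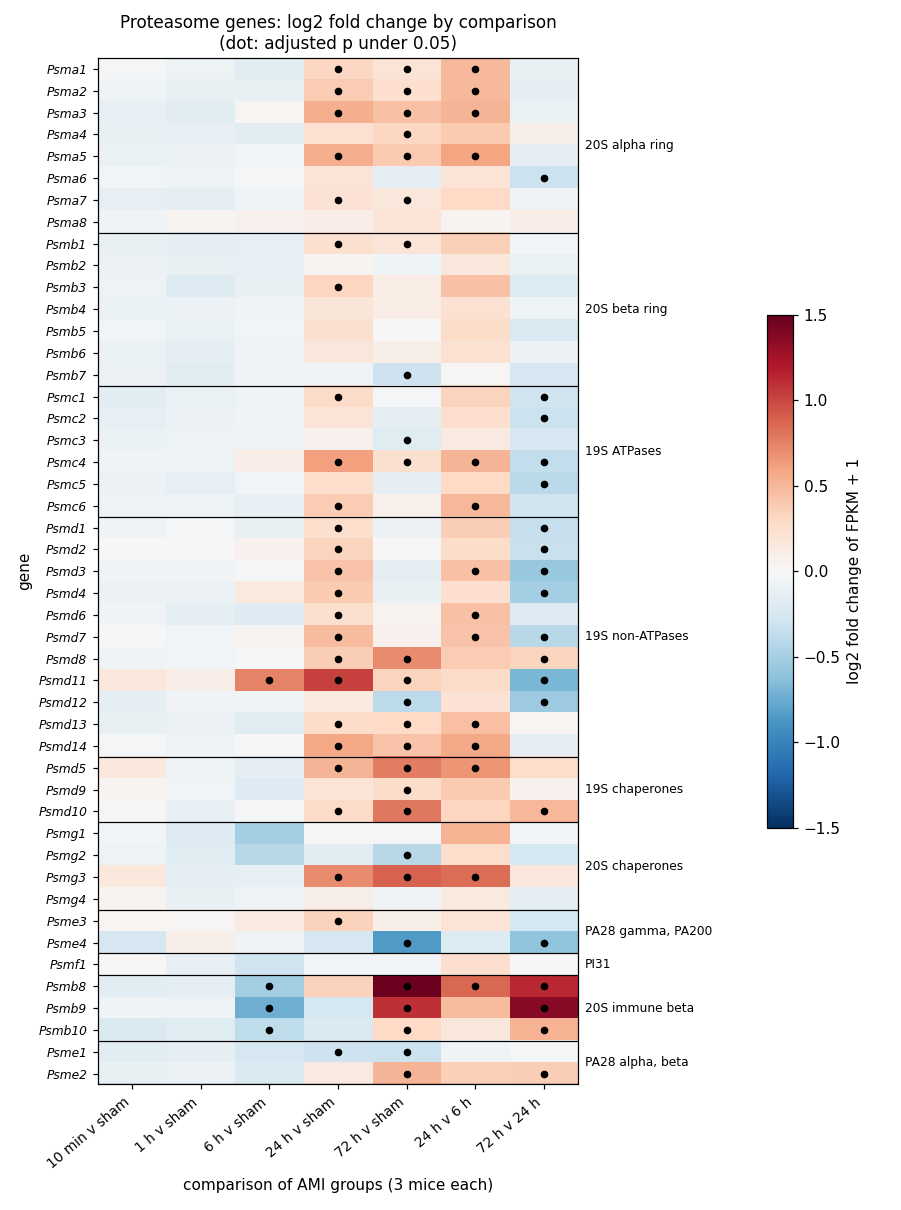
Log2 fold change of FPKM + 1 (colour, red higher and blue lower) for 42 constitutive and 5 immune proteasome genes (rows, grouped by role) in 7 comparisons of 3 mice with 3 (columns), with a dot where the adjusted p of limma was under 0.05. The 24 dots of constitutive genes at 24 h are all on red cells, and at 72 h, where the scaling decides whether more constitutive genes are higher (16 and 5 with FPKM as deposited) or lower (6 and 20 with the median of ratios), Psmb8 and Psmb9 are the darkest.

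At 24 h constitutive genes of several roles rose, and others, among them the catalytic genes, were not called. Higher expression than sham was called for 24 of 42 constitutive genes (57.1%) and lower expression for none, against 26.2% and 11.4% of all genes (37.6% in either direction). For 34 of them all 24 h mice lay above all sham mice, against 39.3% of all genes. Their median log2 fold change was 0.26, against 0.13 for all genes. The summed FPKM of the 42 genes was 3708 to 3728 in the sham mice, 3418 to 3689 at 6 h and 4259 to 4453 at 24 h. Of the 24 genes, 9 kept their call under all 4 scalings (Psma2, Psma3, Psma5, Psmc4, Psmd5, Psmd7, Psmd11, Psmd14 and Psmg3), and 10 were called with the median of ratios, where the median log2 fold change of the constitutive genes was 0.12 against 0.02 for all genes. The count was also lower when a sham mouse was left out, at 7 without the first, 6 without the second and 8 without the third, and it was 23 without the third 24 h mouse, which among the 24 h mice had the highest sums of leukocyte and neutrophil markers.

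By role, 10 of 11 non-ATPase subunits of the 19S cap were called higher at 24 h, 5 of 8 alpha subunits and 3 of 6 ATPases. The same held for 2 of 3 chaperones of the 19S base and 2 of 7 constitutive beta subunits. It also held for 1 of 4 chaperones of the 20S core and 1 of 2 other activators, against 26.2% of all genes. Under all 4 scalings, the only non-ATPase calls that held were those of Psmd7, Psmd11 and Psmd14. In the other roles only Psma2, Psma3, Psma5, Psmc4, Psmd5 and Psmg3 kept their calls, and no beta subunit did. Psmd11 had the largest rise, to 74.3, 68.4 and 94.3 FPKM, 2.08 times the sham mean (adjusted p = 0.00387, log2 fold change 1.02 with an SE of 0.13). Psmg3, a chaperone that helps assemble the alpha ring, went from 8.33, 7.29 and 7.74 FPKM in the sham mice to 11.3, 16.2 and 13.1 FPKM (adjusted p = 0.0105, log2 fold change 0.71 with an SE of 0.14, and 0.0502 without the second sham mouse). Psmc4, an ATPase of the base, went from 54.0, 49.6 and 53.7 FPKM to 70.1, 83.9 and 88.9 FPKM (adjusted p = 0.00816, log2 fold change 0.61 with an SE of 0.11). None of these 3 genes overlapped between the groups. Psmd14, the subunit that removes ubiquitin chains at the entrance of the core, had 22.2, 20.2 and 20.8 FPKM in the sham mice and 32.0, 29.1 and 34.7 FPKM at 24 h (log2 fold change 0.58). Psma3 and Psma5 of the alpha ring each had a log2 fold change of 0.55, with adjusted p of 0.00649 and 0.00951. The non-ATPase subunit that was not called was Psmd12 (adjusted p = 0.15, log2 fold change 0.15).

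The constitutive catalytic genes were not among those called at 24 h. Psmb5 measured 157, 159 and 165 FPKM in the sham mice and 176, 201 and 190 FPKM at 24 h (adjusted p = 0.059, log2 fold change 0.24 with an SE of 0.08), without overlap but also without a call. Psmb6 went from 151, 145 and 146 FPKM to 154, 178 and 169 FPKM (adjusted p = 0.14, log2 fold change 0.17). Psmb7 had 318, 329 and 314 FPKM in the sham mice and 324, 300.4 and 300.4 FPKM at 24 h (adjusted p = 0.59, log2 fold change -0.06), which overlapped. Among the beta genes, Psmb1 and Psmb3 were called. None of the 5 immune genes was called higher at 24 h, and Psme1 was called lower, with 158, 144 and 153 FPKM in the sham mice and 121, 131 and 115 FPKM at 24 h (adjusted p = 0.0286, log2 fold change -0.31 with an SE of 0.08), a call that was lost without any 1 of the sham mice (adjusted p up to 0.117). Psmb8 varied between the 24 h mice, at 19, 23.7 and 28.5 FPKM, and overlapped with sham (adjusted p = 0.118, log2 fold change 0.34).

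**Figure D2:**
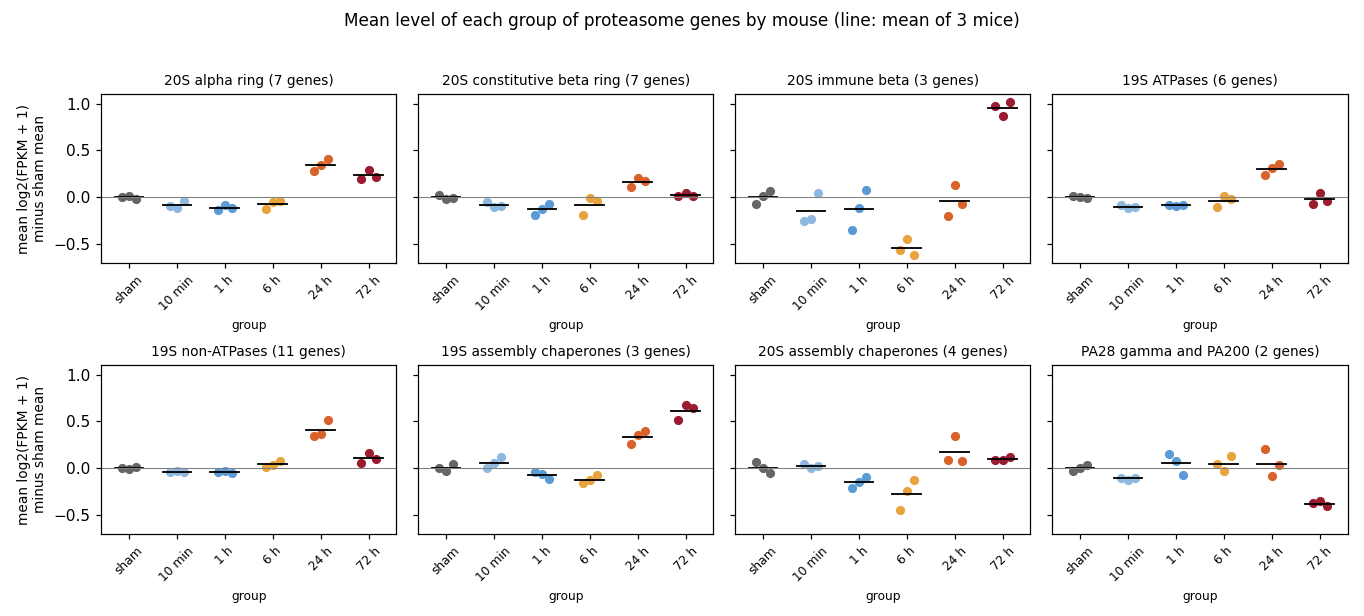
Mean of log2(FPKM + 1) over the genes of each role, as the difference from the sham mean (y axis), in each mouse of the 6 groups (x axis), with a line at the mean of 3 mice and Psma8 left out of the alpha ring. FPKM are as deposited. The constitutive rings and the 19S subunits are highest at 24 h, the 19S assembly chaperones and the immune beta genes are highest at 72 h, and the immune beta genes are lowest at 6 h.

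Set directly against the 6 h mice, the 24 h mice had 13 of 42 constitutive genes higher and none lower, against 12.5% and 1.94% of all genes (14.4% in either direction). For 34 constitutive genes the groups did not overlap, all with higher FPKM at 24 h, against 36.2% of all genes. The largest of these rises were those of Psmg3 (adjusted p = 0.0214, log2 fold change 0.83 with an SE of 0.15), Psmd5 (0.66, SE 0.13, adjusted p = 0.0257) and Psma5 (0.59, SE 0.12, adjusted p = 0.0265). Psmb8 was the 1 immune gene called higher (adjusted p = 0.0238, log2 fold change 0.86 with an SE of 0.16). None of these 14 calls held under all 4 scalings, with 1 constitutive call left with the median of ratios and none with quantile normalization. None was left either without any 1 of the 6 h mice or without the second 24 h mouse, and 4 constitutive calls were left without the third 24 h mouse. Over all constitutive genes the median log2 fold change was 0.33, against 0.20 for all genes.

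At 72 h the immune catalytic genes were at their highest and the constitutive genes had divided. Of the immune genes 4 were called higher and 1 lower, against 53.1% and 24.2% of all genes (77.3% in either direction), and these 5 did not overlap with sham, which held for 55.1% of all genes above and 25.4% below. Psmb8 measured 51.4, 52.0 and 53.7 FPKM, against 16.5 to 20.2 FPKM in the sham mice, a ratio of 2.86 (adjusted p = 6.38e-07, log2 fold change 1.47 with an SE of 0.08). Psmb9 measured 22.4, 19.4 and 22.2 FPKM, a ratio of 2.26 (adjusted p = 3.78e-06, log2 fold change 1.10 with an SE of 0.08). Psmb10 rose less, to 115, 103 and 120.1 FPKM (adjusted p = 0.00937, log2 fold change 0.30 with an SE of 0.08), and its call was lost with the median of ratios (adjusted p = 0.502, log2 fold change 0.07) and with quantile normalization (adjusted p = 0.113, log2 fold change 0.17). The partners of the PA28 ring went opposite ways. Psme2 rose from 27.4, 31.4 and 30.8 FPKM to 41.0, 43.6 and 44.0 FPKM (adjusted p = 0.000216, log2 fold change 0.51 with an SE of 0.07), while Psme1 fell to 132, 110.1 and 121 FPKM (adjusted p = 0.00582, log2 fold change -0.32 with an SE of 0.08). Apart from Psmb10, these calls held under all 4 scalings and with any 1 mouse left out.

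From 24 h to 72 h the same comparison gave 4 of 5 immune genes higher, against 29.7% of all genes, with no overlap for these 4, against 37.3% of all genes. The log2 fold changes were 1.36 for Psmb9, 1.13 for Psmb8, 0.52 for Psmb10 and 0.37 for Psme2, with adjusted p of 0.000392, 0.00101, 0.0184 and 0.0244. Psme1 did not differ beyond its spread between these times (adjusted p = 0.93, log2 fold change -0.01). The 4 calls held under all 4 scalings. Only 2 calls, those of Psmb8 and Psmb9, were left when the first 24 h mouse, or the first or the third 72 h mouse, was not included. The call of Psme2 was also lost without the second mouse of either group, which left 3.

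**Figure D3:**
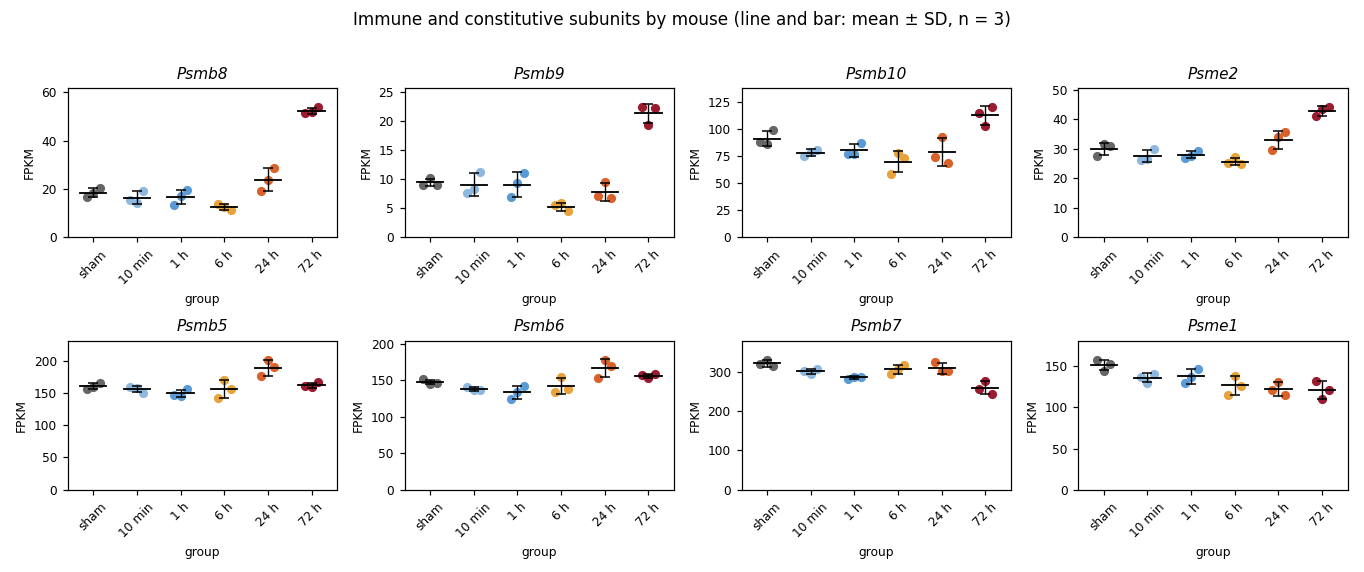
FPKM (y axis, from 0) of 4 immune genes that are called higher at 72 h (top row) and of the constitutive catalytic genes Psmb5, Psmb6 and Psmb7 and of Psme1 (bottom row) in each mouse of the 6 groups (x axis), with a line at the mean and a bar of 1 SD (n = 3). Psmb8 at 72 h lies between 51.4 and 53.7 FPKM, above all mice of the other groups, while Psmb7 at 72 h lies below all sham mice.

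Each immune catalytic gene was set against its constitutive counterpart as a ratio of FPKM within each mouse, which a common scaling of a mouse does not change. The ratio is of RNA in whole tissue, where the cell types shifted, and exchange of subunits in the core was not measured. Psmb8 was at 10.5%, 11.5% and 12.2% of Psmb5 in the sham mice, at 9.63%, 7.34% and 7.30% at 6 h and at 32.1%, 32.8% and 32.3% at 72 h. Psmb9 was at 5.99%, 7% and 6.20% of Psmb6 in the sham mice, at 4.10%, 3.77% and 3.25% at 6 h, at 4.59%, 5.37% and 3.96% at 24 h and at 14.3%, 12.7% and 14.0% at 72 h. Psmb10 was at 27.7%, 26.2% and 31.6% of Psmb7 in the sham mice, at 20%, 25.5% and 23.0% at 6 h and at 45%, 37.2% and 49.2% at 72 h. In each of the 3 pairs the 6 h mice lay below and the 72 h mice above all sham mice. At 24 h Psmb9 against Psmb6 was still below all sham mice, and the other 2 pairs overlapped with sham. The mean log2 ratio over the 3 pairs was taken of FPKM + 1, which a common scaling does not leave exactly unchanged. In the sham mice this mean was -2.90 ± 0.07 (SD, n = 3). It was -3.39 ± 0.08 at 6 h, then -3.07 ± 0.12 at 24 h, and it reached -1.87 ± 0.09 at 72 h. At 10 min (-2.97 ± 0.18), at 1 h (-2.90 ± 0.17) and at 24 h it overlapped with sham. The ratio of Psme2 to Psme1 had its own course, from 17.4%, 21.7% and 20.2% in the sham mice to 24.5%, 26.0% and 30.9% at 24 h and 31.1%, 39.6% and 36.3% at 72 h. A two-sided exact permutation test of 3 mice against 3 cannot go below p = 0.1, the value reached by each single pair wherever the groups did not overlap.

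**Figure D4:**
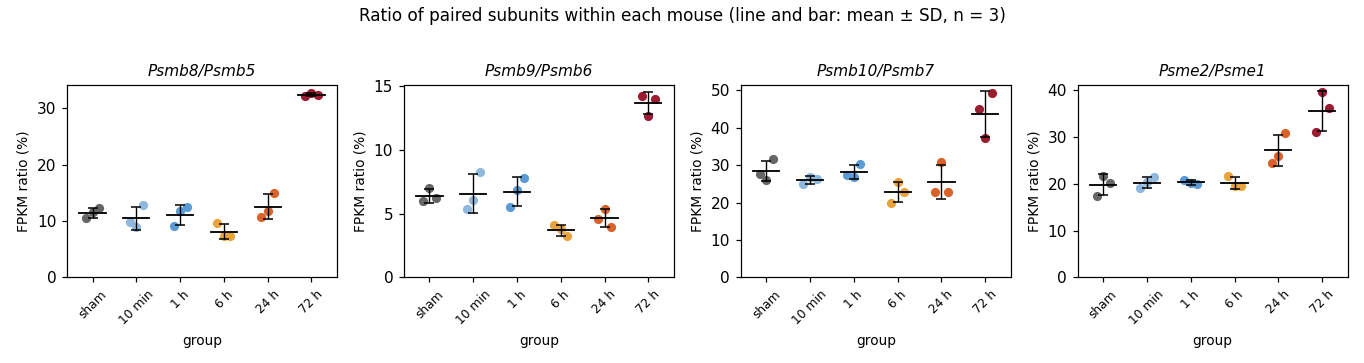
Ratio of FPKM of Psmb8 to Psmb5, Psmb9 to Psmb6, Psmb10 to Psmb7 and Psme2 to Psme1 in percent (y axis, from 0) in each mouse of the 6 groups (x axis), with a line at the mean and a bar of 1 SD (n = 3). In the 3 catalytic pairs the 6 h mice lie below and the 72 h mice above all sham mice, and in Psme2 to Psme1 the 24 h and 72 h mice lie above them.

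The constitutive genes at 72 h had 16 members called higher and 5 lower with FPKM as deposited, 6 and 20 with the median of ratios and 7 and 16 with quantile normalization, so that the direction of the group depends on the scaling. Their median log2 fold change was 0.08, against 0.29 for all genes, and it was -0.16 against 0.10 with the median of ratios and -0.13 against -0.10 with quantile normalization. With FPKM as deposited, 38.1% of the constitutive genes were thus called higher, against 53.1% of all genes, and 11.9% lower, against 24.2%. In 19 the 72 h mice lay above and in 9 below all sham mice, against 55.1% and 25.4% of all genes. Under all 4 scalings 5 genes were higher (Psma3, Psmd5, Psmd8, Psmd10 and Psmg3) and 4 lower (Psmb7, Psmd12, Psme4 and Psmg2), and these 9 calls also held with any 1 mouse left out.

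The 3 largest rises at 72 h were those of assembly chaperones, though the 20S chaperones did not move as 1 group. Of these, Psmg3 rose, Psmg2 fell, and Psmg1 and Psmg4 were not called (log2 fold changes -0.03 and -0.06). Psmg3 measured 14.7, 14.2 and 16.9 FPKM, against 7.29 to 8.33 FPKM in the sham mice, a ratio of 1.96 (adjusted p = 1.98e-05, log2 fold change 0.89 with an SE of 0.09). Psmd10, the base chaperone also known as gankyrin, had 8.21, 8.26 and 8.54 FPKM in the sham mice, 9.54, 11.2 and 10.6 FPKM at 24 h and 14.4, 14.8 and 16.2 FPKM at 72 h (adjusted p = 1.17e-05, log2 fold change 0.79 with an SE of 0.07). Psmd5 had 13.3, 13.3 and 15 FPKM in the sham mice and 22.5, 27.0 and 23.8 FPKM at 72 h (adjusted p = 4.70e-05, log2 fold change 0.77 with an SE of 0.09). Psmd9, the other chaperone of the base in the set, was also called higher with FPKM as deposited (adjusted p = 0.009, log2 fold change 0.27), and not with the median of ratios (adjusted p = 0.627) or quantile normalization (adjusted p = 0.971). Of the lid, Psmd8 rose from 104, 101 and 108 FPKM to 169, 169 and 174 FPKM (adjusted p = 9.18e-06, log2 fold change 0.71 with an SE of 0.06). In all 5 genes the 72 h mice lay above all sham mice.

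The member that fell most was Psme4, whose product PA200 caps the core without ubiquitin or ATP. It lies on chromosome 11 from 30771726 to 30880361 (mm10). The sham mice had 292, 337 and 349 FPKM and the 72 h mice 187, 175 and 178 FPKM, a ratio of 0.551 (adjusted p = 2.13e-05, log2 fold change -0.85 with an SE of 0.08). At 24 h its mice stood apart from each other, at 352, 237 and 243 FPKM, and there was no call (adjusted p = 0.26, log2 fold change -0.25). Psmg2, a chaperone of the alpha ring, fell from 61.8, 56.7 and 54.3 FPKM to 46.0, 43.1 and 39.5 FPKM (adjusted p = 0.00122, log2 fold change -0.42 with an SE of 0.08). Psmd12 of the lid fell from 82.6, 87.5 and 85.4 FPKM to 62.3, 66.9 and 64.1 FPKM (adjusted p = 0.00034, log2 fold change -0.40 with an SE of 0.06). Psmb7 fell to 256, 277 and 244 FPKM (adjusted p = 0.00443, log2 fold change -0.31 with an SE of 0.07), while Psmb5 at 160.0, 159 and 166 FPKM and Psmb6 at 157, 153 and 158 FPKM were not called (log2 fold changes 0.01 and 0.08, adjusted p = 0.88 and 0.23). The ATPase gene Psmc3 was the fifth called lower (adjusted p = 0.0199, log2 fold change -0.18), and it was not called when FPKM were rescaled to the same sum (adjusted p = 0.159). Psmd11 remained above sham at 43.2, 53.4 and 48.7 FPKM (adjusted p = 0.00619, log2 fold change 0.34), a call lost with the median of ratios (adjusted p = 0.236) and with quantile normalization (adjusted p = 0.174).

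**Figure D5:**
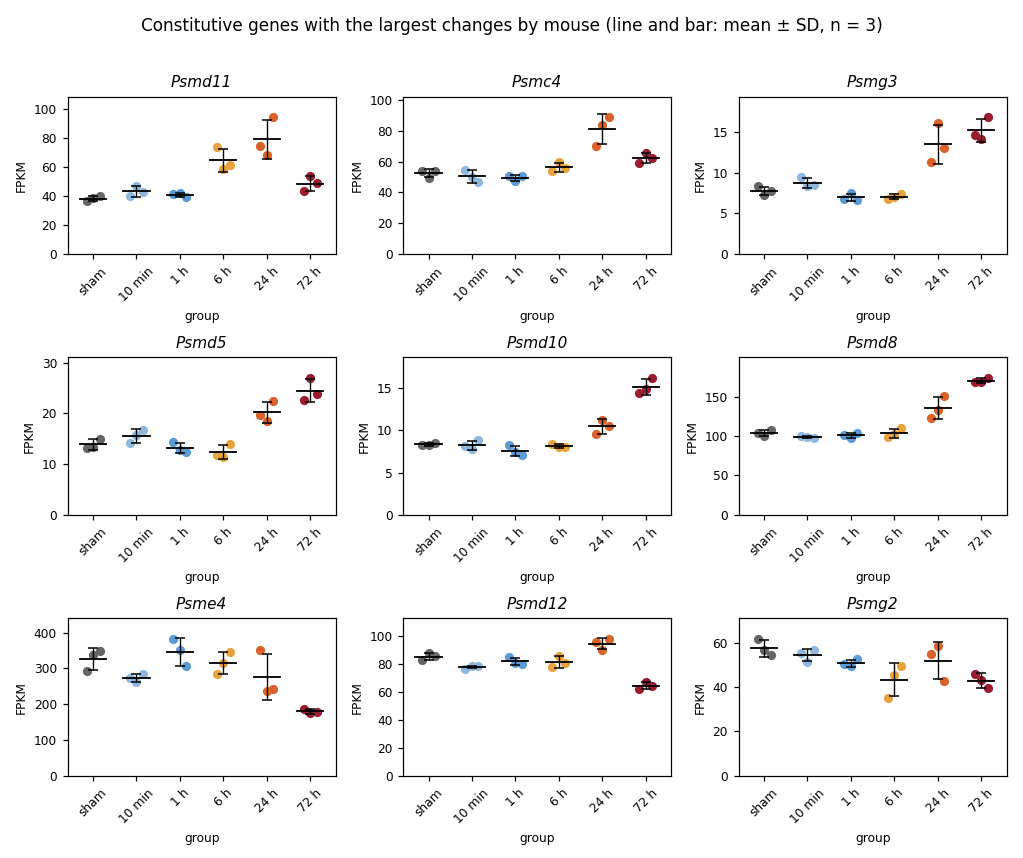
FPKM (y axis, from 0) of 9 constitutive proteasome genes with large changes in each mouse of the 6 groups (x axis), with a line at the mean and a bar of 1 SD (n = 3). By their means Psmd11 is highest at 24 h and Psmg3, Psmd5, Psmd10 and Psmd8 at 72 h, and Psme4, Psmd12 and Psmg2 lie below all sham mice at 72 h.

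Between 24 h and 72 h, 11 of the 17 subunits of the 19S cap fell and 1, Psmd8, rose. Of the 42 constitutive genes 13 were called lower and 2 higher, against 13.5% and 29.7% of all genes (43.2% in either direction), and the 72 h mice lay below all 24 h mice for 23 genes and above them for 3, against 19.1% and 37.3% of all genes. The 13 were 7 of 11 non-ATPase subunits, 4 of 6 ATPases, the alpha subunit Psma6 and Psme4. The largest falls were those of Psmd11 (adjusted p = 0.00805, log2 fold change -0.69 with an SE of 0.15), Psme4 (-0.60, SE 0.16, adjusted p = 0.0214) and Psmd3 of the lid (-0.57, SE 0.11, adjusted p = 0.00509). Psmd3 had 103, 117 and 127 FPKM at 24 h and 78.8, 78.2 and 75.6 FPKM at 72 h. The 2 rises were those of Psmd10 (adjusted p = 0.00761, log2 fold change 0.50 with an SE of 0.10) and Psmd8 (0.33, SE 0.11, adjusted p = 0.0411). Under all 4 scalings 7 genes were lower (Psmc5, Psmd3, Psmd4, Psmd7, Psmd11, Psmd12 and Psme4) and Psmd10 higher. Single mice mattered for the count, which fell to 6 when the second 24 h mouse was not included and to 5, 8 and 5 when the first, the second or the third 72 h mouse was not, each with 1 gene called higher.

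The genes around the proteasome were counted from lists. Of 13 partners outside the symbol rule (ubiquitin receptors, shuttles and assembly factors), none was called at 6 h, against 28.3% of all genes in either direction. At 24 h 4 were higher, against 26.2% of all genes, namely Txnl1 (log2 fold change 0.52), the shuttle Rad23b (0.50), the shuttle Ubqln1 (0.40) and the ubiquitin receptor Adrm1 (0.39). The call of Adrm1 did not hold under all 4 scalings (adjusted p up to 0.0726). At 72 h 4 were higher and 4 lower with FPKM as deposited, against 53.1% and 24.2% of all genes. None was higher with the median of ratios (5 lower) or quantile normalization (7 lower). AI314180, the adaptor also named Ecpas, had 57.2, 57.9 and 59.5 FPKM in the sham mice and 35.5, 40 and 37.1 FPKM at 72 h (adjusted p = 3.36e-05, log2 fold change -0.62 with an SE of 0.07), and its call held under all 4 scalings. Among genes of ubiquitin and its activation, Uba6, an activating enzyme, and Rps27a, a fusion of ubiquitin with a ribosomal protein, were higher at 72 h under all 4 scalings, with log2 fold changes of 1.23 and 1.08.

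The NRF1 pathway (8 genes) did not move as 1 group. Nfe2l1 itself measured 267, 291 and 276 FPKM in the sham mice, 305, 251 and 279 FPKM at 24 h and 204, 182 and 172 FPKM at 72 h. It was not called at 24 h (adjusted p = 0.988, log2 fold change -0.002) and fell at 72 h (adjusted p = 0.000199, log2 fold change -0.58 with an SE of 0.08). Ddi2, the protease that releases NRF1 from the membrane, went from 3.41, 4.82 and 5.39 FPKM to 8.87, 10.7 and 9.19 FPKM at 72 h (adjusted p = 0.000266, log2 fold change 0.95 with an SE of 0.14). Both calls at 72 h held under all 4 scalings. At 24 h 3 of the 8 genes were called higher, against 26.2% of all genes (Nfe2l2, Nploc4 and Ngly1, with log2 fold changes of 0.35, 0.31 and 0.26), and none with the median of ratios or quantile normalization. At 6 h Nfe2l2 alone was called (log2 fold change 0.39), against 28.3% of all genes in either direction. This call of Nfe2l2 did not hold under all 4 scalings (adjusted p up to 0.051).

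Genes of MHC class I presentation (12 genes) and of the interferon response (18 genes) had more members called lower than higher at 6 h and more called higher than lower at 72 h. The same order held over all genes, with 16.8% lower and 11.6% higher at 6 h and 53.1% higher and 24.2% lower at 72 h. At 6 h 4 of the 12 presentation genes were called lower, against 16.8% of all genes, namely Tapbpl, Tapbp, Tap2 and Erap1 with log2 fold changes of -0.53, -0.46, -0.46 and -0.39, and the call of Erap1 did not hold under all 4 scalings (adjusted p up to 0.0595). At 72 h 11 were higher, against 53.1% of all genes, led by Pdia3 (1.98), B2m (1.62), H2-D1 (1.54) and Tap1 (1.49). Tap1 went from 6.51, 7.36 and 7.12 FPKM in the sham mice to 21.6, 21.8 and 21.2 FPKM at 72 h. Of the 18 interferon response genes, 5 were lower and 2 higher at 6 h, against 16.8% and 11.6% of all genes, where Gbp7 (log2 fold change -0.92), Ifit2 (-0.70) and Gbp3 (-0.55) were the largest falls and Irf8 (1.05) was the largest rise. At 24 h 3 were lower and 4 higher, against 11.4% and 26.2% of all genes, and at 72 h 17 were higher, against 53.1%. At 72 h the higher genes numbered 9 of the presentation list with the median of ratios and with quantile normalization, each with 1 lower, and 15 and 14 of the interferon list. The lists were chosen with results of these data known and are set beside the immune genes as values only.

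Some members share exon sequence with other genes, and the sources do not state whether strand was used in counting. By GENCODE release M21, 212 bases (5.79%) of the exons of Psmb9 overlap Tap1 on the other strand, 405 bases (11.8%) of those of Psmb7 overlap Nek6, and 498 bases (14.7%) of those of Psmb8 overlap the antisense gene Gm20496. For Psmg3, 280 bases (9.68%) overlap Gm26938 on the same strand. The largest share was that of Psmd9, with 1849 bases (25.5%) over Gm26745 on the other strand. Psmd13 shares 342 bases (10.1%) with Sirt3 on the other strand, and Sirt3 reached 57.2 FPKM. The part of such reads in the FPKM of these genes was not tested.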

How the data were processed

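RNA of the heart of 18 mice (6 groups of 3) was sequenced from poly(A) libraries. Per the study's methods, the authors used cutadapt 1.18 for trimming, HISAT2 2.1.0 for mapping to mm10 and StringTie 1.3.4d for FPKM, and the deposited table gives FPKM by gene symbol and mouse, without averaging. The annotation is not given in the sources used here. FPKM were used as deposited. The 13333 symbols with at least 1 FPKM in at least 1 mouse were tested on log2(FPKM + 1) with limma 3.58.1 in R 4.3.3 (lmFit, eBayes with a variance trend), two-sided, each comparison on its own 6 mice, leaving out genes constant in those mice, with Benjamini-Hochberg adjustment. The labels give only a group and a replicate number. That the samples are separate animals is taken from the study, which describes 18 mice divided at random into 6 groups.

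The members and gene lists were chosen with earlier results of these data known. Named in full were the immune genes, Psmb5, Psmb6 and Psmb7, and, per comparison, the 3 largest rises and falls among constitutive genes called without overlap. Every constitutive gene called against the majority at 72 h was named too. Psmd14, Psma3, Psma5, Psmd8, Psmg1 and Psmd9 were named after their values were seen. On data simulated from the means and spread of the sham mice (3 against 3), 191 of 200 genes changed by 1 on the log2 scale were called, with 10 false calls among 13330 genes. The 200 were drawn from genes with a sham mean of log2(FPKM + 1) over 3. Smaller changes, and the spread of the AMI groups, were not simulated. Same-numbered mice were not taken as pairs. Alternatives were a pseudocount of 0.1, other filters, 3 scalings, all 18 mice in one fit, no variance trend, a replicate block and leaving out each mouse. Sequences are from RefSeq, gene positions from GENCODE M21. Other software was Python 3.11.15, numpy 2.4.6, pandas 2.3.3, scipy 1.17.1 and matplotlib 3.10.9. Proteome data were not analysed here, and 1 item is not reported here.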

Additional observations from a re-analysis of the deposited data

How the results depend on the processing

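Counts below are of constitutive genes unless immune genes are named. At 24 h against sham, 24 genes were higher with FPKM as deposited, 10 with the median of ratios, 10 with quantile normalization, and 6 to 29 with 1 mouse left out. Leaving out 1 mouse gave 0 to 1 lower genes and 0 to 1 higher immune genes in that comparison. Lower immune genes numbered 0 to 3 there (1 with all mice) and 1 to 4 at 6 h (3 with all mice). At 72 h against sham, the 16 higher and 5 lower genes became 6 and 20 with the median of ratios and 7 and 16 with quantile normalization, and 14 to 16 and 4 to 7 with 1 mouse left out. At 6 h no gene was lower with FPKM as deposited. There was 1 with a pseudocount of 0.1, with a mean FPKM of at least 1, with FPKM rescaled to the same sum and with quantile normalization, 4 with all 18 mice in one fit, and 0 to 4 with 1 mouse left out. For 24 h against 6 h, the 13 higher genes became 1 with the median of ratios, 0 with quantile normalization, 33 with all mice in one fit and 0 to 12 with 1 mouse left out. The 1 immune gene became 0, 0, 3 and 0 to 1 under the same settings. For 72 h against 24 h, the 2 higher genes became 1 with the median of ratios and with quantile normalization, and 1 to 3 with 1 mouse left out. The 13 lower genes became 7 with the same sum, 20 with the median of ratios, 20 in one fit and 5 to 11 with 1 mouse left out, and the 4 higher immune genes became 2 to 4. The cause was not tested, though leaving out a mouse also lowers the number of mice tested. The median log2 fold change of the constitutive genes changed sign at 72 h (-0.16 with the median of ratios, -0.13 with quantile normalization, 0.08 as deposited) and at 6 h (0.03 with the median of ratios, -0.06 as deposited), and that of all genes changed sign with quantile normalization at 24 h, at 72 h and for 72 h against 24 h (-0.04, -0.10 and -0.09). The mean log2 ratio over the catalytic pairs was run only with a pseudocount of 0.1 and with 1 mouse left out. In these settings its difference from sham moved by less than its SD, with a sign that varied only at 1 h, where it was near 0 (0.01).

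Mice with the same replicate number did not deviate together: in 0 of 15 pairs of groups was every correlation over 0.1 (range -0.33 to 0.41). With a replicate block the counts were 12 higher at 24 h, 15 higher and 4 lower at 72 h, 0 higher constitutive and 0 higher immune genes for 24 h against 6 h, and 1 higher and 8 lower for 72 h against 24 h.

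No counts were used, so no counting error is given for any FPKM.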

Other observations

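Psmc3ip, which matches the symbol pattern and encodes a meiotic recombination factor, had 3.22, 2.89 and 3.13 FPKM in the sham mice and 4.91, 6.56 and 4.80 FPKM at 72 h (adjusted p = 0.000778, log2 fold change 0.64 with an SE of 0.11, by limma). Its call was lost with quantile normalization (adjusted p = 0.302). Psmf1, which encodes the proteasome inhibitor PI31, was called in none of the comparisons, with 22.6, 19.5 and 18.4 FPKM in the sham mice and its lowest values at 6 h (14.7, 16.6 and 17.5 FPKM, log2 fold change -0.29, adjusted p = 0.077). Psma8 had between 0.237 and 1.05 FPKM over all mice, without a call.

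Of 6 endothelial markers 1 was higher and 3 lower at 72 h against sham, and of 5 erythroid markers none was higher and 2 were lower. In the same comparison 53.1% of all genes were called higher and 24.2% lower. Erythroid markers summed to between 2234 and 4133 FPKM in the sham mice. Of 4 B cell markers, 2 reached 1 FPKM, and both of these were higher at 72 h, though the call of Cd79a did not hold under all 4 scalings (adjusted p up to 0.255).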
